A study of Mus musculus with 8 samples.

Results

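The 10 genes described here encode proteins that neutrophils store in their specific and gelatinase granules (Ltf, Camp, Ngp, Lcn2, Fcnb, Chil3, Cd177, Mmp8, Mmp9 and Itgb2l). They were chosen by name, and all 10 were found, each in 1 row, among the 23084 genes of the authors' deposited table. RNA was sequenced from CD11b+Ly6C+ (monocytic) and CD11b+Ly6G+ (granulocytic) myeloid cells, sorted by flow cytometry from spleens of C57BL/6 mice aged 6 to 8 weeks. The mice were wt or LmnaMyeKO, in which LysM-Cre deletes floxed Lmna in myeloid cells. Each of the 4 combinations of genotype and subset has 2 samples, 8 in all. Whether the wt mice carried Cre or the floxed allele is not given in the sources used here. Subsets follow the sample titles, as the label for cell markers gives CD11b+Ly6C+ in all 8 cases. Nothing in the labels says that the samples came from separate animals.

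The question of the study was how loss of lamin A/C changes myeloid differentiation. The values analysed were the authors' means per gene, in which the counts of each library are divided by that library's size factor and then averaged. The size factor is the scale that makes libraries of different depth comparable. The lowest means can be written as sums of 8 step sizes, read here as 1 for each library averaged. If these libraries are the 8 samples, both subsets and both genotypes enter a mean. No value of a single sample was analysed, and a mean carries no spread between samples, so no difference between genes below was tested against replicate error. The difference between LmnaMyeKO and wt cells in these genes was not analysed here. In such bulk means, more cells of a type and more RNA per cell cannot be told apart.

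Neutrophil precursors make their granules in waves. Azurophil granules, with myeloperoxidase and serine proteases, are filled at the promyelocyte stage, specific granules with lactoferrin at the myelocyte and metamyelocyte stages, and gelatinase granules in band cells. The transcription factor C/EBPε is required for the specific granule proteins, and Gfi-1 represses monocytic genes in the same lineage.

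Transcripts of the granule genes were among the most abundant in the table. Of the 10 genes, 8 were among the 100 genes with the highest mean normalized count, and the set held 3.74% of the summed mean normalized counts of all genes. The ranks were 4 for Ngp, 5 for Ltf, 8 for Lcn2, 11 for Mmp9, 21 for Mmp8, 27 for Camp, 40 for Chil3 and 45 for Cd177. Itgb2l had rank 199 and Fcnb rank 3214, so these 2 genes lay apart from the other 8. Fcnb is made early in the myeloid series, in promyelocytes and myelocytes.

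**Figure D1:**
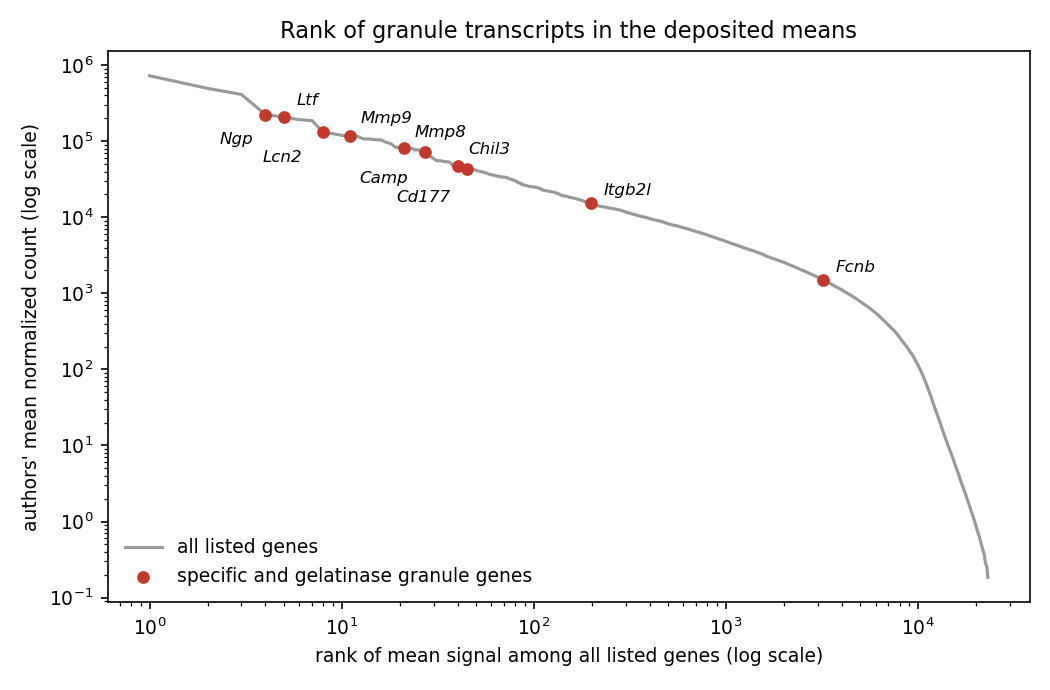
Mean normalized count of every listed gene (vertical, log scale) against its rank (horizontal, log scale), with the 10 granule genes as labelled points on the line of all genes. Points for 8 genes sit between rank 4 and rank 45, Itgb2l is at rank 199 and Fcnb at rank 3214.

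To compare genes with one another, each mean was divided by the length of the longest annotated transcript and given per kb. The median over the 10 genes was 35705 normalized counts per kb, beside 22.5 for all genes and 124 for the 14312 genes with a mean of at least 10. The order per kb, from high to low, was Ngp, Camp, Lcn2, Ltf, Mmp9, Mmp8, Chil3, Cd177, Itgb2l and Fcnb. The level of Ngp was 144 times that of Fcnb. Camp moved from place 6 to place 2 when length was taken into account, because its transcript is the shortest of the 10, at 758 bases. The order within the pairs Lcn2 and Ltf, and Mmp9 and Mmp8, turned when the merged length of all exons was used in place of the longest transcript.

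The soluble antimicrobial proteins of the specific granule had the 4 highest levels per kb of the longest transcript, though Camp was sixth with the median transcript or without division by length. Ngp, neutrophilic granule protein, is related to the cathelicidins and has a mean normalized count of 224942, or 184077 per kb. Its 4 exons (ENSMUSG00000032484) occupy positions 110419747 to 110423012 of mm10 chromosome 9, plus strand, and the positions given for the other genes are on the same build. Camp, the cathelicidin precursor, has a mean normalized count of 72958 and a level of 96251 per kb, 0.523 times that of Ngp. It also has 4 exons (ENSMUSG00000038357) and occupies positions 109847379 to 109849617 of chromosome 9, minus strand. No stretch of 50 bases of the Camp or Ngp transcript occurs in a transcript of any other gene, so the counting could separate these relatives.

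Iron is the substrate of the other 2 of these proteins. Ltf, lactoferrin, binds iron itself, and Lcn2, lipocalin 2, binds the siderophores with which bacteria collect it. Ltf had a mean normalized count of 207629 and 75694 per kb, and its longest transcript has 17 exons (ENSMUSG00000032496, plus strand of chromosome 9, 111019271 to 111042767). Lcn2 had a mean normalized count of 130947 and 95304 per kb (ENSMUSG00000026822, minus strand of chromosome 2, 32384633 to 32388252). Transferrin, encoded by Trf, is the serum relative of lactoferrin, and its level was 4902 per kb, 15.4 times lower than that of Ltf. Of the stretches of 50 bases in the Trf transcript, 79.8% are shared with the gene model Gm20425, so the value of Trf is uncertain. For the receptors, Slc22a17 (a receptor of lipocalin 2) was at 7.87 per kb and Lrp1 (which takes up lactoferrin) at 791 per kb.

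Mmp8, neutrophil collagenase, and Mmp9, gelatinase B, are the matrix proteases of the set. Mmp9, the namesake of the gelatinase granule, had a mean normalized count of 118555 and 37340 per kb (ENSMUSG00000017737, plus strand of chromosome 2, 164940780 to 164955850). Mmp8 had a mean normalized count of 82620 and 34070 per kb (ENSMUSG00000005800, plus strand of chromosome 9, 7558456 to 7568485), 0.912 times the level of Mmp9. The inhibitors looked up, Timp1 and Timp2, were far lower. Timp1, the inhibitor that pairs with Mmp9, was nearly without signal, with a mean normalized count of 2.64, and Timp2 was at 1509 per kb, 24.7 times lower than Mmp9. Mmp25, a membrane-anchored protease of the same family, was at 1788 per kb.

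Chil3 and Fcnb encode lectin-like proteins. Chil3, the chitinase-like protein also known as Ym1, had a mean normalized count of 47211 and 30676 per kb (ENSMUSG00000040809, minus strand of chromosome 3, 106147554 to 106167564). Its close paralog Chil4 had a mean normalized count of 24.0. Of the stretches of 50 bases in the Chil3 transcript, 29.4% occur in other genes and 18.5% in Chil4. Reads lying wholly within such shared sequence may have had to be divided by the authors' expression estimate. Chil1, a more distant relative that shares no such stretch, was at 8187 per kb. Fcnb, ficolin B, a lectin that starts the complement cascade, had a mean normalized count of 1498 and 1281 per kb (ENSMUSG00000026835, minus strand of chromosome 2, 28076378 to 28084885). Fcna, the ficolin of macrophages and liver, was at 5027 per kb, so Fcnb had 0.255 times its level.

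The membrane proteins came eighth and ninth in the order per kb. Cd177, a surface glycoprotein of neutrophils held in the specific granule membrane, had a mean normalized count of 43207 and 15920 per kb (ENSMUSG00000052212, minus strand of chromosome 7, 24743983 to 24760311). Its transcript shares 5.76% of its stretches of 50 bases with other gene models. Itgb2l, a β2 integrin-like subunit, had a mean normalized count of 15222 and 5425 per kb (ENSMUSG00000000157, minus strand of chromosome 16, 96422288 to 96443619). That is 0.343 times the level of Itgb2, the common β2 integrin chain of leukocytes, with which it shares no stretch of 50 bases. Itgam, which encodes CD11b, the antigen used to sort every sample, was at 11546 per kb.

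Another list, of 15 genes chosen for specific and gelatinase granules, was present in full, with a median of 7626 per kb. The highest were Anxa1 (annexin A1) at 32084, Hp (haptoglobin) at 31513 and Pglyrp1 (a peptidoglycan-binding protein) at 19063 per kb, each below the 6 highest of the 10 genes. Cyba and Cybb, the subunits of the oxidase cytochrome, were at 14982 and 7626 per kb. Olfm4, olfactomedin 4, was at 1499 per kb, close to Fcnb. Bpi and Arg1 were nearly without signal, with mean normalized counts of 0.640 and 1.34. Levels within this list thus spanned a wide range. Its low end rests on Bpi and Arg1, which need not be specific or gelatinase granule genes in mouse neutrophils. Of the 10 genes, 6 were above all 15.

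The azurophil list, which holds Ctsc and Serpinb1a beside genes of azurophil granule proteins, was lower. Its 8 genes had a median of 1601 per kb, from 88.7 for Prss57 to 3510 for Serpinb1a. Below Serpinb1a came Ctsc at 2506 and Prtn3 at 1766 per kb. Mpo, myeloperoxidase, was at 1482 and Elane, neutrophil elastase, at 1720 per kb. Fcnb was therefore within the range of this list, with 0.864 times the level of Mpo, while Ngp was 124 times higher than Mpo. None of the 8 genes of the list was among the 100 highest genes.

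Of the transcription factors named for this lineage, Spi1 (PU.1) was highest at 6124 per kb. Cebpb was at 2111, Cebpe at 1952, Cebpd at 1344 and Cebpa at 299 per kb. Gfi1 was at 99.2 per kb, 19.7 times lower than Cebpe. The targeted gene, Lmna, had a mean normalized count of 79.5 over all libraries. This mean does not check the genotype labels, since it is not split by genotype.

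Markers placed these levels among the cells of the sort. The 10 mature neutrophil markers had a median of 10879 per kb, and S100a9 and S100a8 held rank 1 and rank 3 of the table. Ly6g, the antigen of the granulocytic sort, was at 8346 per kb. The 10 monocyte markers had a median of 695 per kb, led by Ly6c2 at 5378 and Csf1r at 4714. Per kb, 9 of the 10 granule genes were above every monocyte marker, Itgb2l by little, and Fcnb was not. By mean normalized count not divided by length, 8 of the 10 were, since Itgb2l at 15222 was below Csf1r at 22159.5. Macrophage markers had a median of 8093 per kb, B-cell markers 1654, eosinophil, basophil and mast cell markers 188, erythroid markers 142, and T and NK cell markers 113. Among the erythroid genes Hbb-bs reached 13663 per kb. The lowest mean of any listed gene was 0.185, so a value above 0 does not set these markers apart. What these other cells add to the levels of the granule genes was not tested.

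**Figure D2:**
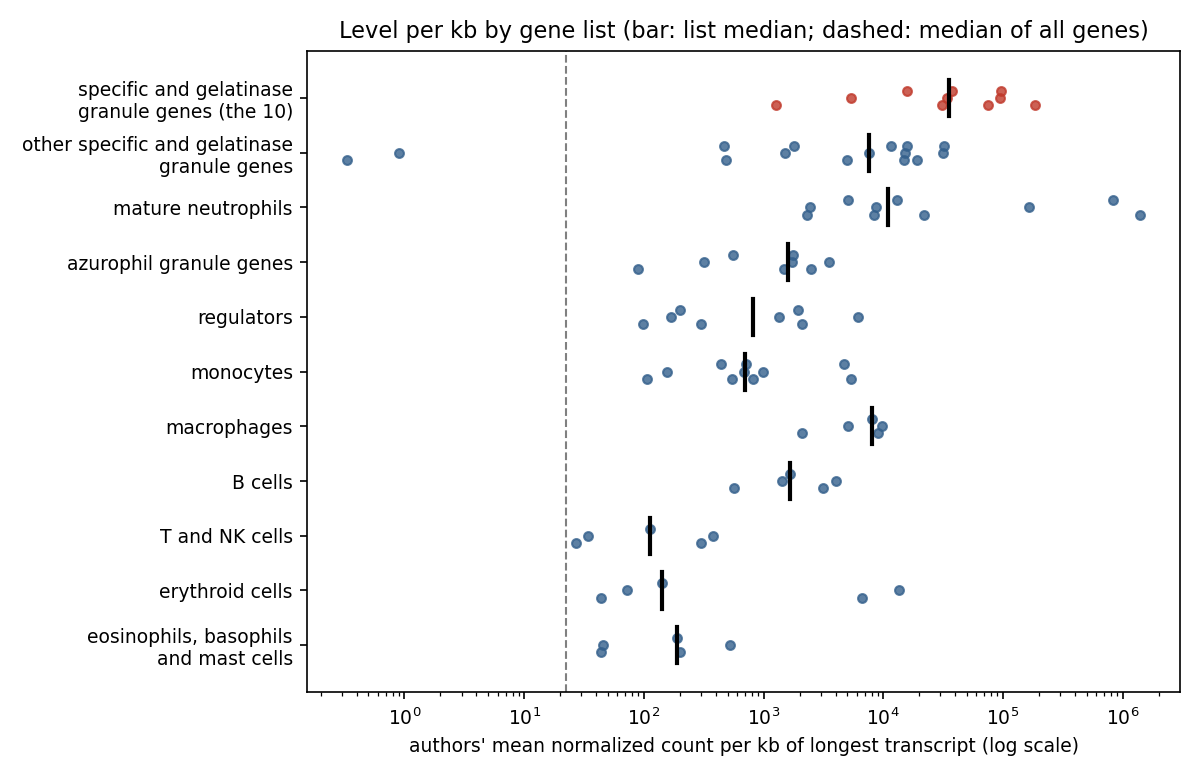
Mean normalized count per kb (horizontal, log scale) of each gene in 11 lists, 1 point per gene, with a bar at each list's median and a dashed line at the median of all genes, 22.5. The 10 granule genes run from 1281 to 184077 per kb, and the list of other granule genes includes 2, Bpi and Arg1, that lie below the dashed line.

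The rule did not use position. Chromosome 9 holds 4 of the granule genes and chromosome 2 holds 3. The share of all listed genes on these chromosomes was not computed, so no uneven spread is claimed. Camp, Ngp and Ltf lie within 1.195 Mb of chromosome 9, from 109847379 to 111042767, with starts 570 kb and 599.5 kb apart. Between Camp and Ltf the annotation has 54 genes including these 3, and 38 were listed. The 3 granule genes held 93.5% of the summed signal of the interval. The median of the other 35 was 5.06 per kb, and Nbeal2, a gene needed for granules of platelets and neutrophils, was highest at 1938 per kb and had rank 172 by mean signal. Levels as high as those of the 3 granule genes were thus not shared by the listed genes in between. These 35 include noncoding and pseudogene models, which bear on their median. The coding genes among them ran from 0.211 per kb for Rtp3 to 1938 for Nbeal2, with Ccdc12 next at 1719. Mmp8, on the same chromosome, is 102 Mb away, and Fcnb and Lcn2 on chromosome 2 are 4.30 Mb apart.

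**Figure D3:**
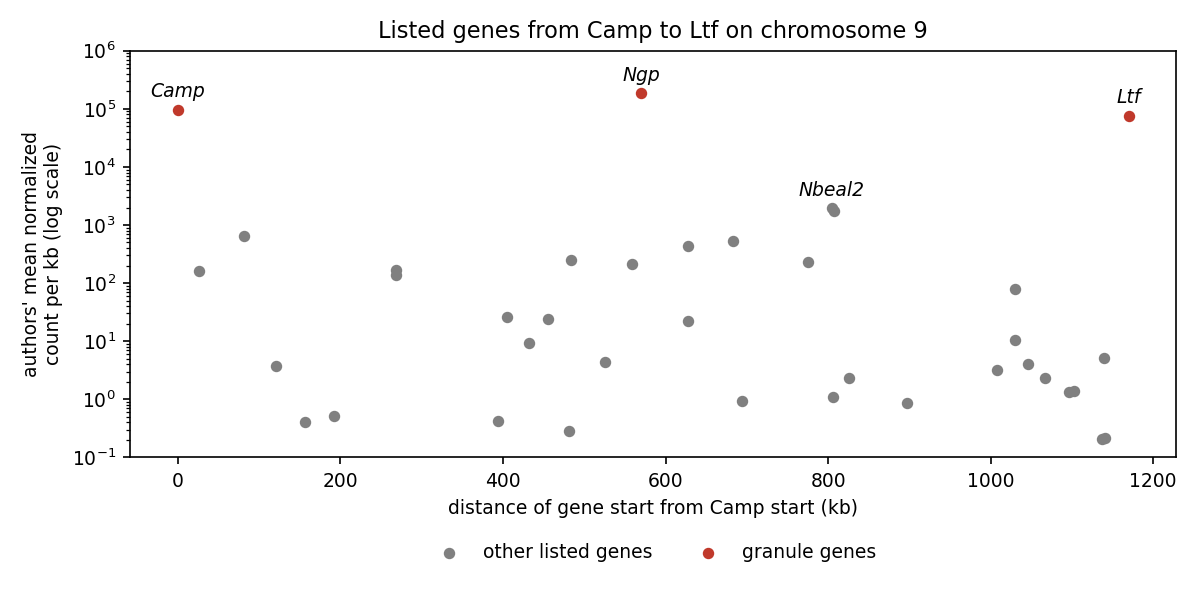
Mean normalized count per kb (vertical, log scale) of the 38 listed genes from Camp to Ltf on chromosome 9, placed by the distance of their start from that of Camp in kb. Camp, Ngp and Ltf lie between 75694 and 184077 per kb, and the highest of the other genes, Nbeal2, is at 1938.

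Several of these genes are known targets of C/EBPε, so the letters of a C/EBP site were looked for in their promoters. RefSeq promoter windows on GRCm38.p6, the build named mm10, run from 250 bases before to 50 bases after the start site, and 9 of the 10 genes matched one (Mmp9 did not). TTNNGNAA, on either strand, occurred in 8 of the 9 (Camp was without it) and in 40.7% of all 32851 windows. The stricter TTGCNNAA, whose matches are all matches of the first motif too, occurred in 5 of the 9, against 10.8% of all windows. With 9 windows, and targets known beforehand, these counts are a description. The stretches of 30 bases around 1 stricter match in each of the 5 genes are shown because C/EBPε is the factor these genes are known for, with the match in capitals, 5′ to 3′ on the gene's own strand.
Ngp, -138 to -131, chr9:110419659-110419688: gtcctggtttaTTGCCCAAacctccttgcc
Ltf, -75 to -68, chr9:111019206-111019235: aggcaggcctaTTGGGCAAtagggtggggc
Lcn2, -216 to -209, chr2:32387937-32387966: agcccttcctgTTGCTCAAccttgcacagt
Mmp8, -19 to -12, chr9:7558399-7558428: ttaggcagaagTTGCTCAAgatgtagcttt
Fcnb, -123 to -116, chr2:28084983-28085012: ttttaggtctcTTGTGCAAccagaggcctc

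Positions count from the RefSeq start site, whose first transcribed base is 0. This site can differ from the end of the gene span given above, and the Lcn2 stretch lies within the span given for Lcn2. The same 8 letters, TTGCTCAA, occur in Lcn2 and Mmp8, at different distances from the start. Ngp has a second stricter match, at -11 to -4, with the letters TTGGGCAA that Ltf also carries. That match too lies within the span given for its gene. The level per kb did not go with the number of matches in any simple way, since Camp without a match was second in the order and Fcnb with 2 stricter matches was last. Other motifs occurred in fewer windows of the set than TTNNGNAA. GAGGAA, the core of a PU.1 site, occurred in 5 of the 9 windows (Cd177, Itgb2l, Lcn2, Ltf and Mmp8) and in 28.3% of all windows. AATCAC, of GFI1 sites, occurred in Ltf and Mmp8 and in 10.4% of all windows, and the Ltf match overlaps a TTNNGNAA match. TATAAA occurred in Cd177, Chil3 and Mmp8 and in 13.6% of all windows.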

How the data were processed

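Per the labels' processing notes and the methods, the authors used cutadapt 1.14 for trimming, STAR 2.5.2b in 2-pass mode for alignment to mm10, RSEM 1.3.0 with GENCODE M12 for gene counts, and DESeq2 1.20.0. The authors' deposited table holds 1 usable signal column, the mean over libraries of counts divided by size factors. Its other 6 numeric columns hold the authors' own comparison of genotypes (fold changes, an error, a statistic and p-values) and were not used, so the count test of the design, and the design's alternatives to it, could not be run. Protein sequences were not analysed here.

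Of the 23084 gene identifiers, 23004 matched GENCODE M21, made for the same build, which gave positions and transcript lengths. For 28 repeated symbols the row with the highest mean was used. Levels per kb divide the mean signal by the longest transcript. Stretches of 50 bases were compared with both strands of all M21 transcripts. Motifs were searched in the RefSeq promoters.

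Genes named are the 10 genes, their paralogs, and fixed lists of granule genes, inhibitors and receptors, regulators and cell markers. Nbeal2, Gm20425, the interval from Camp to Ltf and the ratios to genes other than paralogs were added with the values in view. The genes and lists were chosen with earlier results of these data known. In the lowest means, under 0.4, the steps that 1 read of each library adds were solved from the 7 lowest values, with limits set while looking at these values. Solving from 7 values always returns 8 steps, and other numbers were not tried. Read as libraries, the 8 steps correspond to size factors from 0.796 to 1.91, while reads per sample were not analysed here. The motif, stretch and step searches were tested on simulated data. For the steps, these were sets of 8 libraries, 1 of them deeper, without genes seen in a single library. How the step search behaves with other numbers of libraries or other depths was not tested. Python 3.11.15, pandas 2.3.3 and matplotlib 3.10.9 were used.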

Additional observations from a re-analysis of the deposited data

How the results depend on the processing

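No paired analysis was possible because only means over libraries were analysed, and for the same reason other normalizations and filters of the count test and fits without a replicate were not run. The alignment of proteins was not run either. The median level of the 10 genes was 35705 per kb with the longest transcript, 33785 with merged exons, 113514 with the median transcript and 77789 when not divided by length. The change with the median transcript follows from the shorter transcripts of some genes, which put Ltf 5.09 times higher and left Camp, Ngp and Mmp8, with 1 transcript each, at the same value. In each of these settings Cd177, Itgb2l and Fcnb kept the last 3 places, in that order, while with the median transcript Ltf was first and Camp sixth. Among genes with a signal of at least 10, and among protein-coding genes, 8 of the 10 were again in the first 100. With genes under a signal of 10 left out, the median of the other granule genes moved from 7626 to 11546 and that of inhibitors and receptors from 399 to 791, while the other 11 lists did not change and that of all genes moved from 22.5 to 124. The stricter C/EBP motif left 5 of 8 genes, and searching only before the start site left 8. Stretches of 30 bases, an alternative chosen after seeing the data, named 2 genes, Chil3 and Cd177, as did stretches of 50.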

Other observations

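The lowest means of the table keep a trace of the libraries behind them. All 1223 genes with a mean under 0.4 were whole-number sums of 8 step sizes, within 4e-06, each step being what 1 read of a library adds to the mean. The best choice of 7 of these steps matched 1024 genes and the best choice of 4 matched 425. The solution took each of the 7 lowest values as 1 read in the deepest library plus 1 in another, a different one each time. Leaving out a step therefore had to lose genes, so these counts do not bear on the number of libraries. No set of 7 or 4 steps was solved on its own. The number 8 was set by the way the steps were solved, and larger numbers were not tried. Read as libraries, the steps correspond to size factors from 0.796 to 1.05 for 7 libraries and 1.91 for the eighth. None of the 1223 genes was matched by reads in a single library. The solution had already taken the lowest values as reads in more than 1 library, so this is not an independent observation. Which library has the size factor of 1.91 cannot be read from the steps.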
